A study of Homo sapiens with 3 samples.

Results

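Several-copy shared distal peaks are sites at which Fra-1 and Fra-2 were both called and at which the short DNA element that AP-1 recognises occurs more than once near the peak centre. They were chosen from the Fra-2 peak list on chromosomes 1 to 22 as peaks under 300 bp wide that shared at least 1 bp with a Fra-1 peak, had their centre more than 1 kb from the transcription start sites (TSSs) of all protein-coding and lncRNA transcripts, lay more than 1 Mb from any run of at least 1 Mb of N in the assembly, and held 2 or more copies of TGACTCA or TGAGTCA within 100 bp of the centre. There were 718 such peaks among 13003 Fra-2 peaks. Of the 12695 Fra-2 peaks on these chromosomes, 61.3% shared sequence with a Fra-1 peak, and of the 8968 that were narrow, distal and away from assembly gaps, shared or not, 11.7% held several copies. Overlap, width, position and copy number chose the peaks, so they are described here and not tested.

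The groups were a Fra-1 ChIP sample, a Fra-2 ChIP sample and an input DNA sample, all from MDA-MB-231, a widely used human cell line from a triple-negative breast cancer of basal B type, grown in medium with serum. The labels speak of 2 independent replicates per antibody, but there was 1 peak list per antibody, so replicates give no spread here, and input DNA was not analysed. Peaks are the units of the tests below, except that spacing and orientation were tested over pairs of neighbouring copies, where a peak with 3 or more copies enters more than once. Intervals (95%, exact binomial for shares and log-normal for ratios) cover counting error only; peaks near each other enter as if independent. Read depth behind the peaks is unknown.

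Fra-1 (gene FOSL1) and Fra-2 (gene FOSL2) belong to the Fos family, whose proteins bind DNA only as dimers with a partner, usually a Jun protein. The dimer grips a near-palindromic element, TGACTCA, whose reverse complement is TGAGTCA, so the middle base gives the orientation of a copy. In epithelial cancer cells most AP-1 binding lies in distal enhancers, where AP-1 often works beside TEAD factors, the DNA-binding partners of YAP and TAZ. One dimer fills one copy of the element, and tandem copies give room for more than one dimer.

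The peaks with the most copies are shown first and are not typical, since 653 of the 718 peaks held exactly 2 copies. Within 100 bp of the centre, words of 20 bases that recur at least 5 times on the autosomes filled 41.8% near CTNNA2. The share was 51.6% near NPIPB11, 38.5% near CDYL, 29.7% in CDH18, 7.69% in HTRA3 and 0% near TACR3. It was over 20% in 9.47% of all several-copy peaks. In each sequence below (GRCh37, the assembly of hg19, read 5′ to 3′ on the strand named), capitals mark the copies of the element and 15 bases are shown on each side.
chr2:81885532-81885703, minus strand, nearest gene CTNNA2: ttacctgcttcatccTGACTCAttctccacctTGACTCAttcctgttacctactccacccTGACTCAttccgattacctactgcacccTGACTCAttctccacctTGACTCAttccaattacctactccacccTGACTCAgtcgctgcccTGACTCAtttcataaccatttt
chr4:8305444-8305584, plus strand, nearest gene HTRA3: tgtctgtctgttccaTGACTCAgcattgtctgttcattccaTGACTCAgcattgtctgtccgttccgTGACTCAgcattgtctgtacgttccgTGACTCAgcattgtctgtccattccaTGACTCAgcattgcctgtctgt
chr16:29285081-29285189, minus strand, nearest gene NPIPB11: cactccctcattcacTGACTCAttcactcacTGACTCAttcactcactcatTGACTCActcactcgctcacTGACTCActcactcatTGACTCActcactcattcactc
chr6:4487935-4488049, minus strand, nearest gene CDYL: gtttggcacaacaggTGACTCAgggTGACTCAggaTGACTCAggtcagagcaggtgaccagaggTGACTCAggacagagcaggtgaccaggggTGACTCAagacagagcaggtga
chr4:104419571-104419667, plus strand, nearest gene TACR3: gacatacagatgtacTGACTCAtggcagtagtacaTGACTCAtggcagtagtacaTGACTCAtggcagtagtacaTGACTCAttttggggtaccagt
chr5:19531909-19532004, plus strand, nearest gene CDH18: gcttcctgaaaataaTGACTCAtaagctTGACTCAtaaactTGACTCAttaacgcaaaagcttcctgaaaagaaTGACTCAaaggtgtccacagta

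In the first of them 7 copies lay within 142 bp, all in one orientation, at distances of 17 or 28 bp from start to start. It is intergenic, 1330 kb from the nearest protein-coding TSS, that of CTNNA2, and its Fra-2 peak was 100 bp wide against 250 bp for the Fra-1 peak. The peak in HTRA3, which encodes a secreted serine protease, held 5 copies at a constant distance of 26 bp in an intron. Near TACR3, 4 copies followed each other every 20 bp.

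Distances recurred within other peaks as well. The peak near NPIPB11 had distances of 16 and 20 bp, and the one near CDYL had distances of 10 and 29 bp. A peak in an intron of ERICH1 also had 5 copies, 39, 40 or 46 bp apart. All copies of these 7 peaks had the same orientation.

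Across the 718 peaks there were 1521 copies. Exactly 2 copies were found in 653 peaks, 3 in 52, 4 in 8, 5 in 4 and 7 in 1 peak. Fra-2 widths were 100 bp in 80 peaks, 150 bp in 136, 200 bp in 226 and 250 bp in 276. Just outside the width limit, 223 further peaks of the same kind were exactly 300 bp wide. At the limit on TSS distance, the nearest peak that was kept lay 1028 bp from a TSS and the nearest that was dropped 954 bp.

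Several copies were far more frequent at the peaks than beside them. They were present at the centre, within 100 bp, in 14.6% (13.6 to 15.6) of the 4926 shared distal peaks, and in 0.0609% (0.0224 to 0.133) of windows of the same length 2 kb to each side. At least 1 copy was found in 68.4% of the centres and 3.54% of those windows. Both peak calls covered the copies in most cases: at least 2 copies lay inside the Fra-1 and the Fra-2 peak at 621 of the 718 sites.

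Seen from the genome, groups of copies had a copy inside peaks more often than lone copies were inside them. Distal copies on chromosomes 1 to 22 were grouped when neighbours started within 200 bp of each other, and peaks of any width were counted. Any copy of a group could count, so larger groups had more copies that could lie in a peak. No share per copy was computed. A group was called shared when a copy lay in a Fra-1 peak and the same or another copy lay in a Fra-2 peak. Of 163 groups of 4 or more copies, 23.3% (17.1 to 30.6) were shared in this sense. The share was 21.5% (18.6 to 24.7) of 730 groups of 3 copies, 7.64% (7.21 to 8.09) of 14123 pairs, and 0.812% (0.783 to 0.841) of 379434 lone copies. The intervals of the first 2 classes overlap. Groups with a copy in a Fra-2 peak alone made up 1.23%, 4.79%, 2.97% and 0.752% in the same order.

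**Figure D1:**
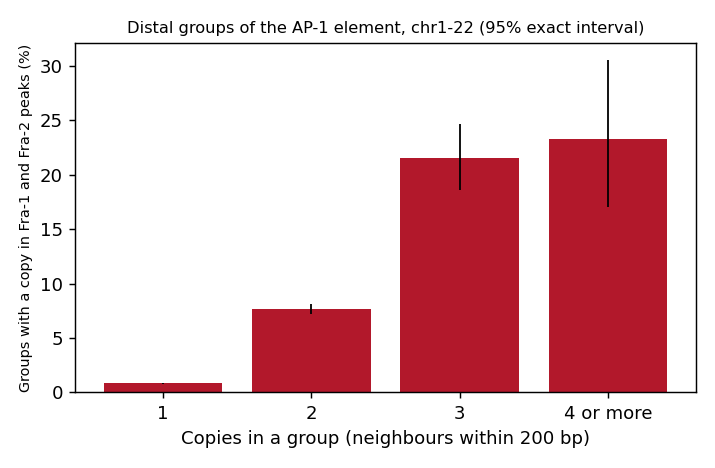
Share of distal groups of the AP-1 element on chromosomes 1 to 22 (y axis, percent) by copies in the group (x axis). Counted are groups with a copy inside a Fra-1 peak and the same or another copy inside a Fra-2 peak. Bars are shares and lines their 95% exact intervals; the share was 0.812% for lone copies and 7.64% for pairs.

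Pairs that stood close together had copies in peaks of both proteins more often than pairs that stood apart. As above, a pair counted when a copy lay in a Fra-1 peak and the same or the other copy in a Fra-2 peak. The share was 13.6% (319 of 2347) for pairs up to 30 bp apart and 12.8% (311 of 2439) for 31 to 60 bp. For pairs 61 to 100 bp apart it was 7.81%, and for pairs farther apart, up to 200 bp, 3.57%. Overlap and copy number chose the peaks, so these shares are a description with no test.

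Within the Fra-2 list the share of peaks that were also called for Fra-1 did not follow copy number in a single direction. Of narrow distal Fra-2 peaks with 3 or more copies 83.3% (65 of 78) were shared, and of those with 2 copies 67.0% (653 of 975). It was 47.4% (2651 of 5594) with 1 copy and 67.1% (1557 of 2321) with none. At each of the 4 Fra-2 widths the share was lowest with 1 copy.

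Within the several-copy peaks the distance from one copy to the next, start to start, had a median of 35 bp, with quartiles of 21 and 60.5 bp and a range of 7 to 172 bp over 803 neighbouring pairs. The commonest distances were 28 bp, with 33 pairs, and 12 bp, with 30. A distance of 10 to 13 bp was found in 91 pairs, and 9 bp in none. A distance of 11 bp had 24 pairs, 17 bp had 23 and 13 bp had 21. The shortest, 7 bp, means that 2 elements abut with no base between them, and 4 pairs did.

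The closest pairs are shown because they place the elements side by side on the helix. In the intergenic peak nearest to HS6ST1 the middle bases run G then C, in the one nearest to UACA C then G, and in an intron of DNMBP, which encodes a scaffold protein, both are C. The pair near HPCAL1 starts 10 bp apart, with 3 bases between the elements.
chr2:129293653-129293696, plus strand, nearest gene HS6ST1: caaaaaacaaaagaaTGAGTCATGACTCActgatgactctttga
chr10:101666363-101666406, plus strand, nearest gene DNMBP: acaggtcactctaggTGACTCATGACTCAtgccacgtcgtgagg
chr15:70767579-70767622, plus strand, nearest gene UACA: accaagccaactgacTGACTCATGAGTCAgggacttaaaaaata
chr2:10423588-10423634, plus strand, nearest gene HPCAL1: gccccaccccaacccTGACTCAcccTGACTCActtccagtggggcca

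A tandem pair of the same kind is well known from another cell lineage. The peak 10.8 kb upstream of a TSS of HBE1, on chromosome 11 from 5301851 to 5302101, held 2 copies starting 10 bp apart in one orientation, and lay 51.4 kb from the TSS of HBB. It corresponds to the tandem AP-1/NF-E2 site of hypersensitive site 2 in the locus control region of the beta-globin genes, an enhancer of red blood cell precursors. The Fra-1 peak there was 300 bp wide and the Fra-2 peak 250 bp, and no other Fra-2 peak lay in the span of 25 kb around it.
chr11:5301968-5302014, plus strand, nearest gene HBE1: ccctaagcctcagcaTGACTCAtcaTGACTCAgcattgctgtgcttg

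Neighbouring copies pointed the same way in 474 of 803 pairs, or 59.0% (55.5 to 62.5). Of the pairs in opposite orientation, 161 ran from C to G on the plus strand and 168 from G to C. Among the 65 peaks with 3 or more copies 110 of 150 pairs were in one orientation. Without the 47 peaks related to another in sequence, described below, 57.6% (53.9 to 61.2) of 731 pairs were in one orientation. Close pairs of several-copy shared peaks were compared with those of the 335 Fra-2-only distal peaks that also held several copies. Of the pairs at shared peaks 41.3% (37.9 to 44.8) lay within 30 bp, against 31.2% (26.4 to 36.4) of 349 pairs at Fra-2-only peaks (ratio 1.32, 1.11 to 1.58, Fisher exact test, 2-sided, adjusted p = 0.0104 over 34 class tests). Orientation did not pass this test, with 59.0% of pairs in one orientation at shared and 53.9% at Fra-2-only peaks (ratio 1.10, 0.979 to 1.23, Fisher exact test, adjusted p = 0.254). The Fra-2-only several-copy peaks were narrower. Of narrow distal Fra-2 peaks with 2 copies, 40.8% were shared at a width of 100 bp and 89.3% at 250 bp. Comparisons with Fra-2-only peaks were not made within single Fra-2 widths.

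That difference in spacing was lost under 5 other choices. With copies counted inside the Fra-2 peak alone its ratio was 1.14 (Fisher exact test, adjusted p = 0.316), and with copies within 50 bp of the centre 1.10 (adjusted p = 0.584). Without peaks related in sequence, described next, it was 1.26 (Fisher exact test, adjusted p = 0.0606). It was 1.27 more than 5 kb from a TSS (Fisher exact test, adjusted p = 0.0916) and 1.28 with Fra-2 peaks under 200 bp (Fisher exact test, adjusted p = 0.235).

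**Figure D2:**
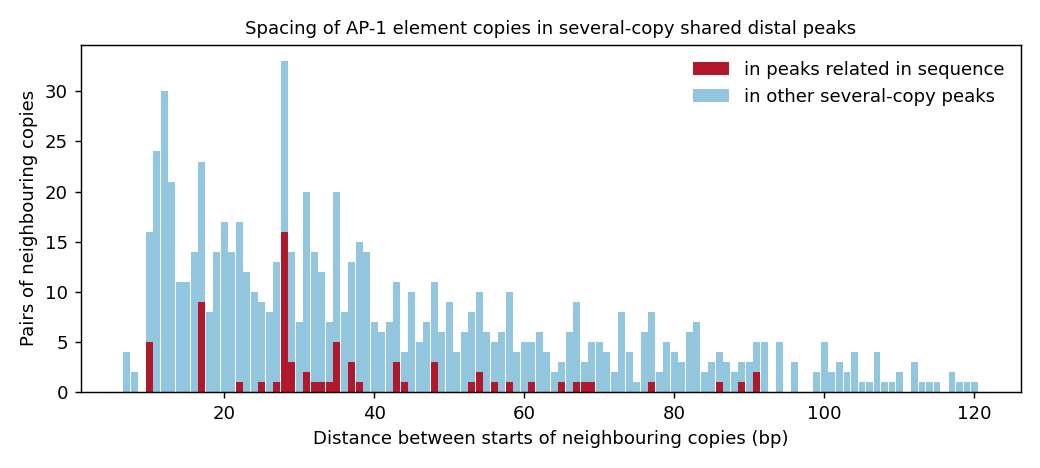
Number of pairs of neighbouring copies (y axis) by the distance between their starts in bp (x axis, up to 120 bp) in the 718 several-copy peaks. Red marks pairs in the 47 peaks related to another in sequence and blue the rest; the spike at 28 bp holds 33 pairs, 16 of them in a single group of related peaks.

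Some several-copy peaks were related to each other in sequence. Peaks were linked when they shared at least 15 words of 12 bases within 100 bp of their centres. By this, 47 peaks (6.55%) fell into 8 groups. The same linking joined 162 (6.11%) of the 2651 single-copy shared distal peaks and 29 (8.66%) of the 335 Fra-2-only several-copy peaks. Links were sought only within a class, so these shares depend on class size and are not set against each other. The 8 groups of several-copy shared peaks held 20, 12, 4 and 3 peaks and 4 pairs. Such peaks share part of their sequence and are not independent of each other.

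The group of 12 held 16 of the 33 pairs at 28 bp. All 12 held 3 or more copies, 43 in total, and all 31 neighbouring pairs were in one orientation, with 9 further pairs 17 bp apart. It includes the peak with 7 copies, and every one of the 12 had a Fra-1 peak of 200 to 350 bp. Of the 43 copies, 36 were followed by TTC on the strand where they read TGACTCA, and 38 were preceded by C. Words of 20 bases that recur at least 5 times on chromosomes 1 to 22 made up over 20% of each of the 12 windows. No repeat annotation was used, so the group has no name here. One of the 12 lay 1.99 kb upstream of HMGCS1, which encodes an enzyme of cholesterol synthesis, with 4 copies and a Fra-1 peak of 300 bp. More of its members, near TRIM33, in ABLIM3, near XPO1 and near GALNT15, show the unit:
chr1:115016161-115016253, minus strand, nearest gene TRIM33: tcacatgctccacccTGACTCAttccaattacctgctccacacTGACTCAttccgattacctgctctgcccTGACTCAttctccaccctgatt
chr5:148567226-148567318, plus strand, nearest gene ABLIM3: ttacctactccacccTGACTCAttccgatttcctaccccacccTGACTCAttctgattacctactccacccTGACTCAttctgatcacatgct
chr2:61825831-61825901, minus strand, nearest gene XPO1: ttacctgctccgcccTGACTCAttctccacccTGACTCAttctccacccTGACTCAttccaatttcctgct
chr3:16143122-16143203, minus strand, nearest gene GALNT15: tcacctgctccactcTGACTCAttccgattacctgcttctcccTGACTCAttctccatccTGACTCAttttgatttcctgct

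The group of 20 was of another kind, with 2 copies in all but 1 peak, no pair 17 or 28 bp apart, and 7 of 21 pairs in one orientation. The word AGCACTTTGGGA, part of the Alu consensus, an abundant primate repeat, lay in 16 of the 20 windows. The peak in an intron of AXL, a receptor tyrosine kinase of invasive breast cancer cells, is one of them. Its copies lay 35 bp apart, 2.79 kb from an AXL TSS, under a Fra-2 peak of 200 bp and a Fra-1 peak of 100 bp.

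A pair of related peaks lay in the CXC chemokine cluster of chromosome 4, whose genes encode neutrophil attractants. One was 10.1 kb upstream of CXCL2, with a Fra-1 peak of 450 bp, and the other 35.8 kb upstream of CXCL8, with a Fra-1 peak of 200 bp. Both had a Fra-2 peak of 100 bp and 2 copies 48 bp apart in opposite orientation, and 75 of the 85 bases shown were identical.
chr4:74974892-74974976, plus strand, nearest gene CXCL2: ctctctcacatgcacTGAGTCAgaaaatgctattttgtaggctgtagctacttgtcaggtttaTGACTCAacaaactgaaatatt
chr4:74570364-74570448, plus strand, nearest gene CXCL8: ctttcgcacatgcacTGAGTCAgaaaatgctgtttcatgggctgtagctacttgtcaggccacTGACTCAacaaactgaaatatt

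Sequence that recurs in the genome was not in general more frequent in several-copy peaks. Recurring words filled over 20% of the window in 9.47% of them and 7.85% of single-copy peaks (ratio 1.21, 0.930 to 1.57, Fisher exact test, adjusted p = 0.355). Among peaks with 3 or more copies it was 22 of 65 (33.8%, 22.6 to 46.6), and with that stricter limit on copies the ratio to single-copy peaks was 4.31 (Fisher exact test, adjusted p = 1.5e-07). How uniquely reads map there was not tested.

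Single-copy shared distal peaks, chosen by the same rule but with exactly 1 copy, were the closest class for comparison. Of 17 measures that the choice of peaks did not use, 4 differed between the classes at an adjusted p under 0.05. Several-copy peaks less often had a TEAD motif, less often had a neighbouring Fra-2 peak, more often had a wide Fra-1 peak, and less often were GC-rich.

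**Figure D3:**
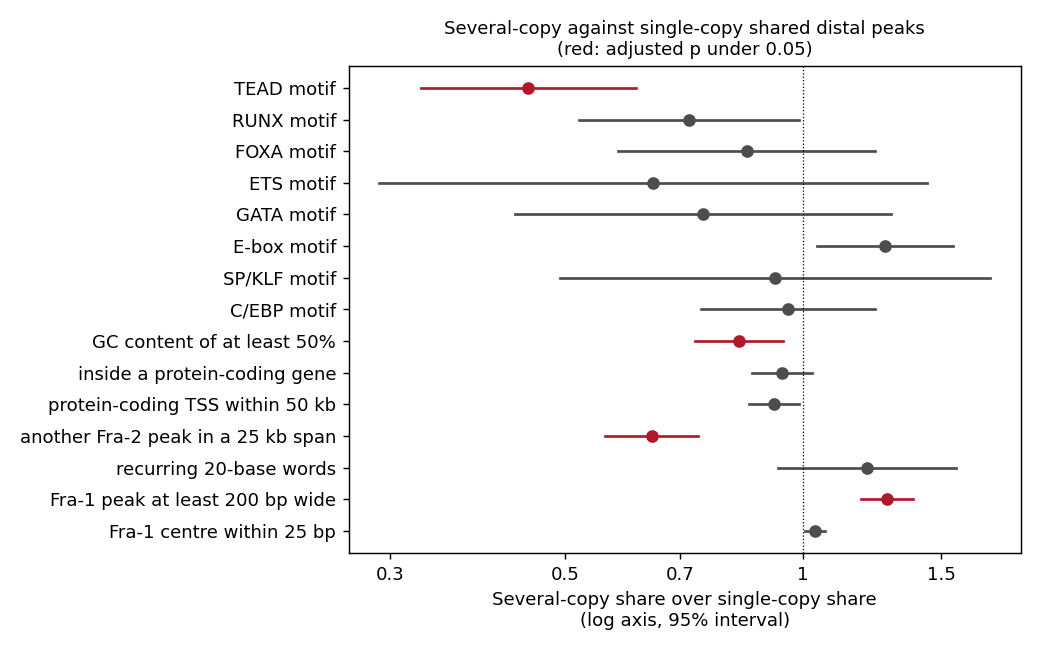
Ratio of the share of several-copy peaks to the share of single-copy peaks (x axis, log scale) for each measure held by 5 or more several-copy peaks (y axis). Points are ratios and lines their 95% intervals, in red where the adjusted p is under 0.05; the TEAD motif lies lowest at 0.449 and a Fra-1 peak of at least 200 bp highest at 1.28.

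The TEAD motif, GGAATGC or GGAATGT, lay within 100 bp of the centre of 41 several-copy peaks (5.71%, 4.13 to 7.67) and of 337 single-copy peaks (12.7%, 11.5 to 14.0). The ratio was 0.449 (0.328 to 0.615, 2-sided Fisher exact test, adjusted p = 2.8e-07). In windows 2 kb away the shares were 4.53% (3.51 to 5.73) for several-copy and 5.00% (4.43 to 5.62) for single-copy peaks, so the interval of the several-copy centres spans the level of their own surroundings. Shared peaks without a copy had the motif in 17.2% (15.4 to 19.2). Fra-2-only peaks ran in the same order, at 5.07% with several copies, 8.43% with 1 copy and 13.1% with none. At each Fra-2 width the share was lower in several-copy than in single-copy peaks, with ratios of 0.70 (0.330 to 1.49) at 100 bp, 0.440 (0.228 to 0.849) at 150 bp, 0.480 (0.275 to 0.837) at 200 bp and 0.372 (0.207 to 0.671) at 250 bp. With Fra-2 peaks under 200 bp alone the ratio was 0.527 and did not pass (Fisher exact test, adjusted p = 0.122). EREG, which encodes the EGFR ligand epiregulin, had one of the 41 peaks with the TEAD motif, in the gene 9.64 kb from the TSS with its 2 copies 32 bp apart. The TEAD motif of this peak lies outside the bases shown.
chr4:75240455-75240523, plus strand, nearest gene EREG: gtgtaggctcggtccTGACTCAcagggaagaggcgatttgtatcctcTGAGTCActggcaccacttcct

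Several-copy peaks also stood alone more often than single-copy peaks. Within a span of 25 kb around the peak centre, another Fra-2 peak had its centre at 180 several-copy peaks (25.1%, 21.9 to 28.4) and at 1033 single-copy peaks (39.0%, 37.1 to 40.9), a ratio of 0.643 (0.562 to 0.736, Fisher exact test, adjusted p = 9.02e-11). In the Fra-1 list another Fra-1 peak lay in that span at 158 of 718 several-copy and 894 of 2651 single-copy sites. At each Fra-2 width the ratio was between 0.616 and 0.660. Shared peaks with no copy had a neighbour in 50.9% of cases. Fra-2-only peaks ran in the same order, at 19.7% with several copies, 31.8% with 1 copy and 43.8% with none. Between several-copy shared and several-copy Fra-2-only peaks the difference did not pass (25.1% and 19.7%, ratio 1.27, 0.991 to 1.63, Fisher exact test, adjusted p = 0.172), but with no width limit it did (1.55, Fisher exact test, adjusted p = 0.000865). Another several-copy peak lay in the span of 16 several-copy peaks.

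**Figure D4:**
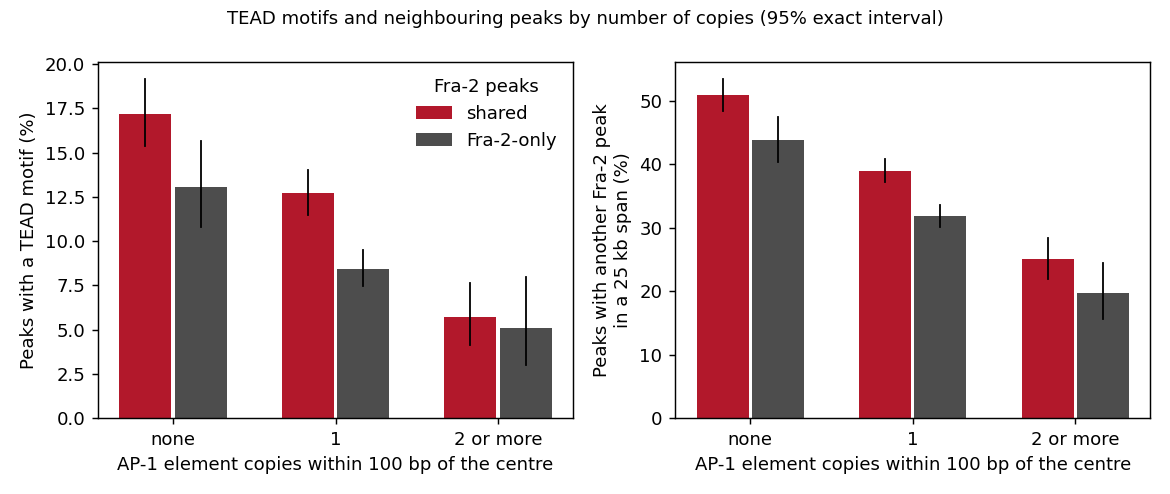
Share of Fra-2 distal peaks under 300 bp (y axes, percent) with a TEAD motif within 100 bp of the centre (left) and with another Fra-2 peak in a span of 25 kb around it (right), by number of AP-1 element copies (x axis), for peaks shared with Fra-1 (red) and Fra-2-only peaks (grey). Lines are 95% exact intervals; among shared peaks both shares are lowest with several copies, at 5.71% and 25.1%.

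The Fra-1 peak, whose width the choice of sites did not use, was wider at several-copy sites. It measured at least 200 bp at 410 several-copy sites (57.1%, 53.4 to 60.8) and at 1182 single-copy sites (44.6%, 42.7 to 46.5), a ratio of 1.28 (1.19 to 1.38, Fisher exact test, adjusted p = 4.51e-08). Fra-1 medians were 200 bp at several-copy and 150 bp at single-copy sites. Fra-1 width moved with Fra-2 width, and within single Fra-2 widths the ratios were 1.12, 1.33, 1.19 and 1.12 at 100, 150, 200 and 250 bp. At 200 and 250 bp the difference passed (Fisher exact test, adjusted p = 0.0279 for both over 4 widths), and 100 bp (adjusted p = 0.65) and 150 bp (adjusted p = 0.0598) did not. Peak width is all the lists offer in place of a height, so these values say nothing of how much protein was bound.

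**Figure D5:**
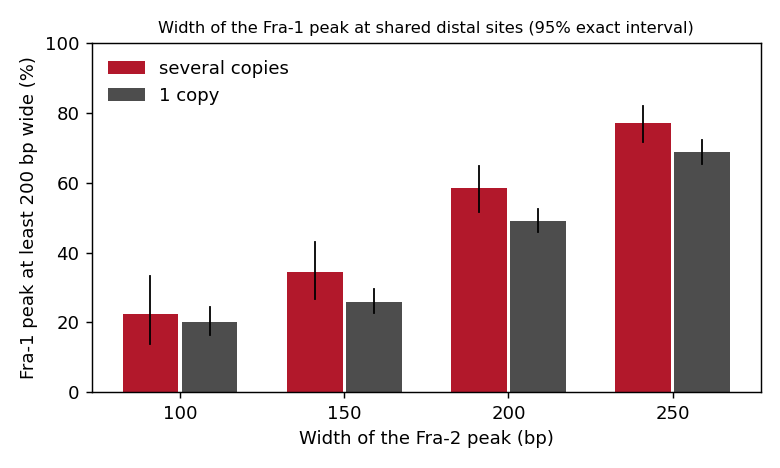
Share of shared distal sites whose Fra-1 peak is at least 200 bp wide (y axis, percent), by the width of the Fra-2 peak (x axis, bp), at sites with several copies (red) and with 1 copy (grey). Lines are 95% exact intervals; with a 250 bp Fra-2 peak the shares are 77.2% and 68.8%.

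The widest Fra-1 peaks at several-copy sites lay near DIP2C (600 bp, with 3 copies 59 bp apart), in DNMBP (550 bp, with 2 copies 34 bp apart), upstream of CXCL2 (450 bp), and in TEX35 and THAP4 (400 bp each, with 2 and 3 copies). The Fra-1 and Fra-2 peaks had the same start and end at 244 of 718 sites, and their centres lay a median of 25 bp apart. The Fra-1 centre was within 25 bp of the Fra-2 centre at 89.6% of several-copy and 86.3% of single-copy sites (ratio 1.04, 1.01 to 1.07, Fisher exact test, adjusted p = 0.0801).

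The position of the copies about the peak centres is given as a description for sites with exactly 2 copies. The choice of peaks sought copies to an equal distance on each side of the Fra-2 centre. No share for copies placed at random in that window was computed. The Fra-2 centre lay between the 2 copies at 371 of 653 sites (56.8%, 52.9 to 60.7) and the Fra-1 centre at 372 (57.0%). The nearer copy was a median of 12 bp from the Fra-2 centre and 13 bp from the Fra-1 centre, and the midpoint of the pair 17 and 18 bp, on a grid of 50 bp.

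The bases next to the element differed between the classes. Read with C in the middle, 32.4% of the 1521 copies in several-copy peaks had a purine before and a pyrimidine after them, against 49.8% of the 2651 copies in single-copy peaks. For the copy nearest to the centre it was 36.5% (33.0 to 40.1) and 49.8% (47.8 to 51.7). At least 1 copy of the several-copy peaks had these flanks in 55.0% (51.3 to 58.7). Flanks of A and T, which extend the palindrome, were found at 9.73% of copies in several-copy and 14.1% in single-copy peaks. Per peak the order was the other way. At least 1 copy had A and T flanks in 18.1% (15.4 to 21.1) of several-copy peaks, against 14.1% of single-copy peaks. Several-copy peaks have more copies that can count. Of the 684 copies in Fra-2-only several-copy peaks, 39.0% had a purine before and a pyrimidine after them, and 12.4% had A and T flanks. The comparison of flanks was chosen after the values had been seen and is given with no test.

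Few other motifs differed. The GC content was at least 50% in 203 of 718 several-copy (28.3%) and 902 of 2651 single-copy windows (ratio 0.831, 0.731 to 0.944, Fisher exact test, adjusted p = 0.0243), with medians of 45.8% and 46.8%. This call was lost under most other choices, among them copies inside the Fra-2 peak (ratio 0.847, Fisher exact test, adjusted p = 0.0589) and no related peaks (0.839, adjusted p = 0.0589). RUNX motifs (TGTGGTT or TGCGGTT) lay in 5.85% and 8.15% (ratio 0.718, 0.521 to 0.989, Fisher exact test, adjusted p = 0.135). The E-box CAGGTG, a site of ZEB and SNAIL repressors, lay in 15.6% and 12.3% (ratio 1.27, 1.04 to 1.55, Fisher exact test, adjusted p = 0.0801). With hits that overlapped an AP-1 copy left out, the E-box ratio was 1.06 (Fisher exact test, adjusted p = 0.907). It passed with copies within 150 bp (1.33, Fisher exact test, adjusted p = 0.0311), more than 5 kb from a TSS (1.37, adjusted p = 0.0467) and with no width limit (1.28, adjusted p = 0.0205). FOXA (TGTTTAC), ETS (CCGGAAG), SP/KLF (GGGCGGG) and C/EBP (TTGCNNAA) motifs had ratios of 0.850, 0.646, 0.923 and 0.958, and none passed. The letters AGATAAG, bound by the GATA factors, had a ratio of 0.748 and did not pass. In windows 2 kb from the several-copy peaks, RUNX motifs lay in 4.11%, the E-box in 16.9% and FOXA motifs in 2.58%. All motifs were sought on both strands, and a hit that overlapped another motif was kept. The cyclic AMP response element TGACGTCA was in 1 several-copy peak, near BAIAP2L1, and the NF-kB motif in 0 of 718 several-copy and 13 of 2651 single-copy peaks. Against Fra-2-only peaks with several copies, FOXA motifs alone passed among 15 such measures, with 4.46% of shared and 1.19% of Fra-2-only peaks (ratio 3.73, 1.33 to 10.5, Fisher exact test, adjusted p = 0.032), where the Fra-2-only share rests on 4 peaks. Without related peaks the ratio was 3.53 (Fisher exact test, adjusted p = 0.0589), and with copies within 150 bp 2.66 (adjusted p = 0.0743, Fisher exact test). It was 2.97 more than 5 kb from a TSS (Fisher exact test, adjusted p = 0.129) and 2.63 with Fra-2 peaks under 200 bp (Fisher exact test, adjusted p = 0.351).

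In the genome the several-copy peaks were spread over all 22 autosomes, with 12 to 70 peaks each. Their centres were intergenic in 383 cases (53.3%), in introns of protein-coding genes in 318 (44.3%) and in exons in 17. They lay inside a protein-coding gene in 46.7% and single-copy peaks in 49.5% (ratio 0.942, 0.863 to 1.03, Fisher exact test, adjusted p = 0.356). The median distance to a protein-coding TSS was 40.4 kb, against 35.3 kb for single-copy peaks, 139 several-copy peaks lay within 10 kb and 219 beyond 100 kb. A protein-coding TSS lay within 50 kb of 54.7% and 59.5% (ratio 0.920, 0.854 to 0.990, Fisher exact test, adjusted p = 0.0801).

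The 718 peaks had 657 different nearest protein-coding genes, and 53 genes were nearest to more than 1. CFAP20DC was nearest to 4 peaks, 2 of them inside FHIT, and CDH18, DNMBP, DUSP4, GATA3, PTPRM and RAPGEF4 to 3 each. DUSP4, which encodes a phosphatase that switches off MAP kinases, had its 3 peaks 143, 283 and 315 kb upstream. GATA3, a luminal transcription factor, had 2 of its 3 peaks 73.0 and 80.3 kb downstream. The other lay 1197 kb downstream and belonged to the group of 20 peaks related in sequence. These genes were chosen after the counts were seen.

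Of 18886 protein-coding genes on the autosomes, 6.54% had a several-copy peak within 100 kb of a TSS and 0.858% within 10 kb. Cytokines and chemokines had one within 100 kb for 5 of 20 list members, namely IL11, CXCL2, CXCL8, CXCL3 and IL1B, and targets of YAP/TAZ and TEAD for 5 of 23, namely AXL, CRIM1, GADD45B, F3 and AREG. Genes that neighbour each other can have the same peak in reach, and AREG stands in more than 1 list, so list members are not independent. Mesenchymal and matrix genes had 4 of 20, luminal genes 3 of 19 matched, EGFR ligands and RAS/MAPK genes 3 of 24, proteases and inhibitors 2 of 19 matched and blood cell genes 2 of 20. The AP-1 family, the TGF-beta pathway, ribosomal proteins and neuronal genes had 1 each, and hepatocyte genes and basal keratins, integrins and laminins had 0 of 20 each. FOSL2 itself had its nearest several-copy peak at 116 kb and FOSL1 at 6365 kb. Counts this small are a description of where the peaks lie.

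Some of these peaks lie close to genes of invasion, growth factor signalling and inflammation. IL11, which encodes a cytokine of the IL-6 family, had a peak 2.47 kb upstream with 2 copies 83 bp apart and an ETS motif. HBEGF, an EGFR ligand, had one inside the gene 1.76 kb from a TSS with copies 58 bp apart. An intron of FN1, the fibronectin gene, held 2 copies 38 bp apart, and PLAU, the urokinase gene, had 2 copies 21 bp apart 14.5 kb upstream. The Fra-1 and Fra-2 peaks were both 200 bp wide at IL11 and both 250 bp at FN1, whereas at HBEGF the Fra-1 peak was 100 bp and the Fra-2 peak 150 bp.
chr19:55884266-55884385, plus strand, nearest gene IL11: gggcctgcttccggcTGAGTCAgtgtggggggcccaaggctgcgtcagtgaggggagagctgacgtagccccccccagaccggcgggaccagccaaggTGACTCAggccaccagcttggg
chr2:216275731-216275805, plus strand, nearest gene FN1: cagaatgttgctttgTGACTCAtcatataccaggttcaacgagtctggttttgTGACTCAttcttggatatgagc
chr10:75654468-75654525, plus strand, nearest gene PLAU: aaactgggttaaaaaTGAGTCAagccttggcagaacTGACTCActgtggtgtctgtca

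Other named genes had peaks as well. CLDN4, a tight junction gene, had 2 copies 76 bp apart 5.00 kb upstream of a TSS. LTBP2, which encodes a matrix protein, had an intronic pair 48 bp apart. The one AP-1 gene in reach, ATF4, lay 54.4 kb from a peak in CACNA1I with 3 copies at distances of 35 and 12 bp. CRIM1 lay 48.0 kb from a peak in FEZ2 with copies 77 bp apart and a Fra-1 peak of 300 bp. ADAM9, which encodes a membrane protease, held an intronic pair 16 bp apart with a TEAD motif. Peaks also lay 40.6 kb from MAP2, 92.3 kb from RPS2 and 95.5 kb from CD8A, genes of the neuronal, ribosomal and blood cell lists, with 2, 2 and 4 copies.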

How the data were processed

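Fra-1 and Fra-2 were mapped by ChIP-seq in MDA-MB-231 cells. The authors deposited, per antibody, the start and end of each peak on a grid of 50 bp, with no height or p-value. The submitters' processing notes name Bowtie2 and hg19; the peak caller, its threshold and the pooling of replicates are not stated in the sources used here. All peaks on chromosomes 1 to 22 lay within the GRCh37 chromosome lengths. The input was not used here, and depth is unknown.

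Width is end minus start and the centre their midpoint. TSSs and genes came from GENCODE 44 lifted to GRCh37. Motifs were sought on both strands. Classes were compared with 2-sided Fisher exact tests, Benjamini-Hochberg adjusted over 34 class tests, in Python 3.11.15, numpy 2.4.6, scipy 1.17.1 and numba 0.67.0. Code was tested on simulated data. Peaks, measures and 13 gene lists were chosen with earlier results of these data known. Peaks named are the 10 with the most copies, the 5 with the widest Fra-1 peak and up to 2 per gene list. Also named are the 5 with the closest pair among peaks with exactly 2 copies, with ties taken by position. Sequences, from the assembly, are shown for some of them, and a few further peaks were chosen after their values were seen. Some peaks that this rule names are not reported here.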

Additional observations from a re-analysis of the deposited data

How the results depend on the processing

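Over 20 other settings, 417 of 472 recomputed values were counted as unchanged. Some of these could not change, since leaving out motif hits that overlap a copy alters the motif measures alone. Test results had to keep their side of the threshold, shares and medians to stay within their interval, and counts within a set fold. A ratio that changed direction counted as reversed only when it passed in either setting. By that rule 1 reversed, the ratio of GC-rich windows, at 1.003 with no width limit. Others changed direction without passing, among them SP/KLF motifs against single-copy peaks, from 0.923 to 1.13 with no width limit. The 718 peaks became 468 with copies within 50 bp of the centre, 65 with 3 or more copies, 216 with Fra-2 peaks under 200 bp and 1086 with no width limit. The share with several copies among shared distal peaks with a copy, 21.3%, became 15.8%, 2.39%, 17.2% and 24.6% in these settings, and 23.2% with copies within 150 bp. The 2.39% is a share of peaks with 1 copy or with 3 or more, since the 653 peaks with exactly 2 copies were left out of it. The median distance became 28, 28 and 39 bp with 50 bp, 3 or more copies and 150 bp, and the share of pairs within 30 bp 55.5%, 54.7% and 37.1%; with 3 or more copies 73.3% of pairs were in one orientation. The cause was not tested. The Fra-1 width ratio fell short of the threshold with Fra-2 peaks under 200 bp (1.27), 100 bp (1.12) and 150 bp (1.33). With Fra-2 peaks under 200 bp 1 of 17 measures passed, and in the comparison with Fra-2-only peaks 1 of 15 motif and location measures did. Genes within 100 kb numbered 1236, against 87 with 3 or more copies, 342 under 200 bp, 1952 with no width limit, 162 within 10 kb and 657 by nearest TSS. The TEAD ratio was 0.363 with 3 or more copies and 0.527 under 200 bp, and passed in neither. With no width limit RUNX motifs passed against single-copy peaks (0.681, Fisher exact test, adjusted p = 0.0205). No ratio could be given where a class held 0 peaks with a motif, as for FOXA against Fra-2-only peaks with copies within 50 bp and with 3 or more copies. Leaving out related peaks, using more transcripts and giving TEAD motifs and neighbours by Fra-2 width were settings chosen after the data were seen. No paired analysis was possible because each antibody has 1 peak list.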
